A study of Mus musculus with 564 samples.

Results

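A set of 1307 cis-regulatory elements (CREs), 2.21% of the 59190 measured, gained acetylation of histone H3 at lysine 27 (H3K27ac) in mouse macrophages after lipopolysaccharide (LPS) and after interleukin 4 (IL-4), 2 stimuli that drive macrophages towards different programs. They were selected on measured values. In cells pre-treated with vehicle (DMSO), the mean normalized read count of the 2 replicates of a stimulus, on the log2(value + 5) scale, had to exceed that of unstimulated (UT) cells by at least 1 for LPS and for IL-4 at the same time, 2 h or 4 h, with a mean of at least 30 after each stimulus. The condition was met at 2 h by 996 elements and at 4 h by 940, and 629 met it at both times. These shared-gain elements made up 11.5% of the 11322 CREs that reached the same thresholds at 2 h or 4 h after LPS and 29.1% of the 4499 that did so after IL-4. Both comparisons used the same UT libraries, so a low UT value raises both gains of an element. The values that chose the elements are given below as a description, with no test.

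H3K27ac marks active promoters and enhancers and changes at many sites when macrophages are stimulated. LPS binds TLR4 and acts through NF-kB, MAP kinases and AP-1, and later through interferon beta and JAK kinases. IL-4 binds its own receptor and acts through JAK1, JAK3 and STAT6. Both pathways are known to switch on inhibitors of cytokine signalling, among them the SOCS family.

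The cells were bone marrow-derived macrophages (BMDMs) from wild type male C57/BL6 mice aged 6 to 8 weeks. They received DMSO or a clinical kinase inhibitor (CKI) for 1 h, with 58 CKIs in all. They were then left unstimulated, with a 4 h untreated label and a time 0 title, or received LPS or IL-4 at 10 ng/mL for 30 min, 1 h, 2 h or 4 h. DMSO cells gave 18 libraries in 9 groups of 2 replicates, and CKI cells gave 546 libraries, of which 73 were UT. The labels do not say whether replicates came from separate cultures or animals, so p-values measure the spread between these libraries.

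Scaled totals ran from 4066894 to 12391409 per library. From the spacing of the deposited values, reads in CREs were estimated at 2343000 to 5071000 for 15 of 16 DMSO libraries with a stimulus and at 342600 to 6006000 for 528 CKI libraries. No such estimate was obtained for either DMSO UT library, so the counting error of the UT values is not known. As a check of the cell type, 5 of 8 macrophage markers had a CRE at their promoter, and the summed value of these in a DMSO library was 2577 to 4844, with Spi1, which encodes the macrophage factor PU.1, at 1573 to 2625. Promoter CREs were found for 1 of 5 T cell markers (77 to 138), 2 of 5 B cell markers (19 to 94), 2 of 6 granulocyte markers (8 to 206), 1 of 4 dendritic cell markers (5 to 31), 2 of 3 stromal markers (7 to 126) and 0 of 4 erythroid markers. No shared-gain element had any of these markers as its nearest gene. In a bulk library, acetylation in a larger share of cells cannot be told apart from more acetylation per cell.

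The sequences below show the middle 300 bases of the 4 elements with the largest shared gain that lay outside untranslated regions, on the plus strand of GRCm38/mm10. Capitals mark matches to the motifs searched, either an AP-1 site (TGANTCA), a STAT6-type site (TTCNNNNGAA) or a STAT-type site with the shorter spacer (TTCNNNGAA). One of them, nearest to Rmi2, held no match.

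Zfp459 element, chr13:67423156-67423455: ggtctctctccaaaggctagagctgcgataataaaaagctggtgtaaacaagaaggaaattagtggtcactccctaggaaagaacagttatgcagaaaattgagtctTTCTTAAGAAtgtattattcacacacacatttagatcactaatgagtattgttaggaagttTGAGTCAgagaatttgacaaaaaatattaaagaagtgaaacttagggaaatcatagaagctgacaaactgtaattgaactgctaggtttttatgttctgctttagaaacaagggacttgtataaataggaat

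Rmi2 element, chr16:10846567-10846866: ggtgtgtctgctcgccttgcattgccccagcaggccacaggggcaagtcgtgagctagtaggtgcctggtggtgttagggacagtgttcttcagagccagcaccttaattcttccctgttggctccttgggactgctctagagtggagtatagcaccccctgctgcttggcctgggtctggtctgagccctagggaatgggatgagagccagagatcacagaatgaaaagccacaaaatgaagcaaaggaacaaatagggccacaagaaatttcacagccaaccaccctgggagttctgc

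Cish element, chr9:107307059-107307358: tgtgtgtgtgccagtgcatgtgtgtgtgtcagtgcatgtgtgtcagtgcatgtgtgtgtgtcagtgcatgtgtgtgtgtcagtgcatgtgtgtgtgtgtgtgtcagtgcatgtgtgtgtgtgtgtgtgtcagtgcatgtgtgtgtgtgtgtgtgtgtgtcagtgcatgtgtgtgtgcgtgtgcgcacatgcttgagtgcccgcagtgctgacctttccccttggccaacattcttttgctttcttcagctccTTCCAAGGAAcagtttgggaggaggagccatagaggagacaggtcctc

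Rmi2 element, chr16:10844125-10844424: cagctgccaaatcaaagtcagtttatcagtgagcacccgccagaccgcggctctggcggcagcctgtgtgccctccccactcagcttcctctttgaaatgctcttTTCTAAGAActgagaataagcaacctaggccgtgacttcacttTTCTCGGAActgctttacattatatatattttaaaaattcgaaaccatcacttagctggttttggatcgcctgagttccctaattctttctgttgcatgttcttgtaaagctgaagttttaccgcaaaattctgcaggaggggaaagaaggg

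The STAT6-type spacing was the letter pattern that set the shared-gain elements furthest apart from all CREs among the 9 motifs searched on both strands of this central window. It was present in 376 of 1307 elements (28.8%), against 9.23% of all CREs, 7.68% of 7652 CREs gained after LPS and not after IL-4, and 32.1% of 2276 gained after IL-4 and not after LPS. In these 2 comparison sets the other stimulus stayed under a log2 difference of 0.5. The STAT-type site of the shorter spacing was found in 260 elements (19.9%), against 9.40% of all CREs, 11.3% after LPS only and 13.7% after IL-4 only. The 2 STAT patterns can overlap each other. Among CREs away from promoters the STAT6-type shares were 29.7% of shared-gain elements and 10.1% of all. The 30-base windows below show STAT6-type matches, in capitals, in 3 of the elements with significant gains after both stimuli in the inhibitor libraries described below; they were chosen after their values were seen.

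Ptger4 element, chr15:5633893-5633922: ttcctttcatTTCTGTGGAAtccactacat

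Csf3r element, chr4:126004309-126004338: agctaattagTTCCTCCGAAgtgacagata

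Cish element, chr9:107307301-107307330: cttcagctccTTCCAAGGAAcagtttggga

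Sites typical of the LPS response stood between the 2 single-stimulus sets. The interferon response pattern GAAANNGAAA was present in 121 elements (9.26%), against 11.3% after LPS only, 4.35% after IL-4 only and 5.14% of all CREs. The NF-kB pattern GGGNNTTTCC was present in 64 (4.90%), against 6.16%, 1.14% and 2.81%. AP-1 sites were present in 286 (21.9%), close to the 20.2% of all CREs, and PU.1 (GAGGAAG) and C/EBP (TTGCNNAA) patterns in 21.5% and 15.7%, against 23.4% and 14.7%. An AP-1 and a STAT6-type site together were present in 112 (8.57%), against 2.12% of all CREs, 1.95% of those gained after LPS only and 7.16% of those gained after IL-4 only. EGR (GTGGGCG) and E-box (CACGTG) patterns were present in 2.45% and 3.75%, against 4.05% and 5.66%. A match is a run of letters and not a measured binding site.

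**Figure D1:**
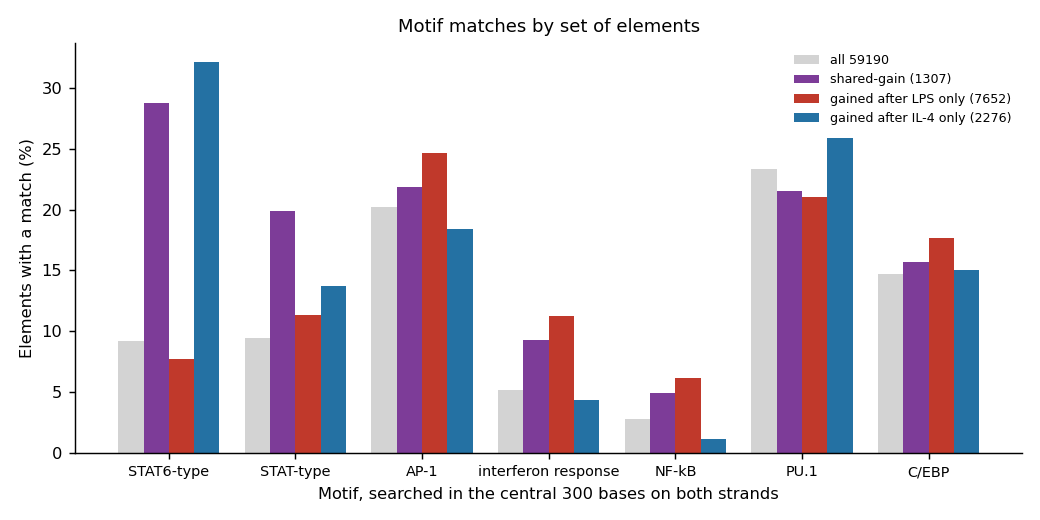
Share of elements (%) with at least 1 match to each of 7 motifs in the central 300 bases, both strands, for all CREs and 3 sets of elements. The STAT6-type bar of the shared-gain elements, 28.8%, lies near that of elements gained after IL-4 only, 32.1%, whereas for the NF-kB pattern, 4.90%, it lies near that of elements gained after LPS only, 6.16%.

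The shared-gain elements lay mostly outside promoters. Of the 1307, 97 (7.42%) were promoters, centred no more than 1 kb from a protein-coding start in GENCODE M21, 67 lay in exons, 635 (48.6%) in introns and 508 (38.9%) between genes, whereas 19.2% of all CREs were at promoters, 9.81% of those gained after LPS only and 11.5% of those gained after IL-4 only. Their median distance to the nearest such start was 22535 bp, against 13177 bp for all CREs and 17750 and 18158 bp for those gained after LPS only and IL-4 only. GC content of the central window averaged 45.4%, against 49.8%, 46.4% and 47.7% in the same sets. Their median width of 1674 bp was close to the 1652 bp of all CREs. The deposited widths vary although the methods describe a fixed window around each peak summit, so the stretch over which an element's reads were counted is not known. Of the elements, 66 (5.05%) were more than 50% repeat-masked, against 4.17%. They were spread over 20 chromosomes, with 800 genes as nearest neighbours. An element is named below by its nearest protein-coding start, which need not be the gene it acts on.

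With gaps of up to 25 kb, 650 elements (49.7%) fell into 228 clusters, 25 of which had 5 or more; the same was not computed for other sets of CREs. The most populated cluster held 17 of the 21 CREs between positions 17638828 and 17812039 on chromosome 6, over Capza2, a subunit of the actin capping protein, and St7. All 8 CREs between 42248061 and 42302358 on chromosome 13, nearest to Edn1, which encodes the peptide endothelin 1, were shared-gain elements. So were all 6 between 10834213 and 10858957 on chromosome 16, over the start of Rmi2, which lies beside Socs1. Further groups of 6 or 7 lay at Pde4b, which encodes a cAMP phosphodiesterase, at Tarm1 and Cacng6, at Ms4a4a and Ms4a7, and at Il4i1, which encodes an amino acid oxidase named after its induction by IL-4, and Nup62. Calls after both stimuli in the inhibitor libraries described below covered 33.4% of all shared-gain elements and 0.781% of all CREs tested. In the groups of 6 or more they covered 6 of 6 elements at Rmi2, 9 of 17 at Capza2 and St7, and 5 of 8 at Edn1. They covered 5 of 7 at Tarm1 and Cacng6, 2 of 7 at Pde4b, and 1 of 7 at Ch25h and Fas. The count was 4 of 6 at Ms4a4a and Ms4a7, at Ptprj, at Slc1a2 and at Il4i1 and Nup62, and 0 of 6 at Fosl2 and Plb1.

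The rule favours elements with a low UT value. The UT mean of the shared-gain elements had a median of 22.0 and quartiles of 12.5 and 46.5, against a median of 36.5 over all CREs, 24.0 over those gained after LPS only and 35.0 over those gained after IL-4 only, and it was under 30 in 804 and at least 100 in 139. The median over the elements was 23 and 20 in the 2 UT libraries. After LPS it was 43 and 49 at 30 min, 82 and 77 at 1 h, 116 and 113 at 2 h and 113 and 100 at 4 h. After IL-4 it was 92 and 89 at 30 min, 90 and 106 at 1 h, 91 and 102 at 2 h and 93 and 95 at 4 h. The IL-4 libraries were thus near their later level by 30 min, and the LPS libraries lay below them at 30 min and 1 h and above them at 2 h and 4 h. The median over all CREs stayed between 33 and 45 in the 18 libraries.

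**Figure D2:**
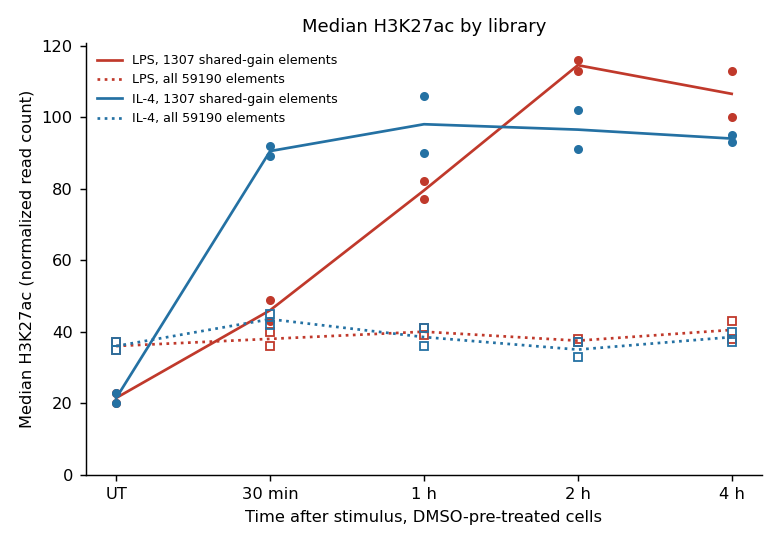
Median normalized read count by time in DMSO cells, with 1 point per library and lines through the mean of the 2 replicates, for the 1307 shared-gain elements (filled points, solid lines) and all 59190 CREs (open squares, dotted lines). The IL-4 medians of the shared-gain elements were 92 and 89 at 30 min, where the LPS medians were 43 and 49.

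Against UT, the median log2 gain over the elements was 0.82, 1.43, 1.82 and 1.70 at 30 min, 1 h, 2 h and 4 h of LPS and 1.62, 1.66, 1.59 and 1.56 at the same times of IL-4. A gain of at least 1 was already seen at 30 min in 1030 elements (78.8%) after IL-4 and in 569 (43.5%) after LPS, 468 of them after both. Over all CREs these shares were 9.9% and 16.0%. At 1 h such a gain was seen in 1085 (83.0%) and 877 (67.1%), 736 of them after both, against 8.14% and 18.7% of all CREs. The UT libraries that chose the elements also enter these early gains. The highest of the 4 LPS values fell at 2 h in 564 elements and at 4 h in 460, and at 30 min in 100. The highest IL-4 value fell at 4 h in 472 and at 30 min in 349. At the time with the larger shared gain, the LPS gain was the larger in 763 elements and the IL-4 gain in 535, and the 2 differed by less than 0.5 in 616. LPS exceeded IL-4 by at least 1 in 255, and IL-4 exceeded LPS by at least 1 in 125.

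The smaller of the 2 gains had a median of 1.44 and was at least 2 in 263 elements and at least 3 in 37. At the threshold, elements near Bbs10, Sertad2, Papolg and Nf2 just entered the set at 1.00, whereas elements near Edn1 (0.996), Rbbp8 (0.996), 6030445D17Rik (0.994) and Gm5150 (0.994) just missed it.

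Of the 12 largest shared gains, 3 lay at Rmi2, 2 near Cish and 1 at Socs1. Rmi2 encodes a subunit of a complex that resolves DNA recombination intermediates. The element with the largest shared gain was centred in an annotated exon, 7403 bp from the start of Rmi2 (chromosome 16, 10841661 to 10843263). It had values of 4 and 6 in UT, 5 and 3, 22 and 27, 268 and 202, and 251 and 229 at 30 min, 1 h, 2 h and 4 h of LPS, and 254 and 270, 220 and 261, 224 and 238, and 153 and 190 at those times of IL-4. The IL-4 libraries were all high from 30 min on, and the LPS libraries were at the UT level at 30 min and high from 2 h. The neighbouring intronic element (10843311 to 10845239), whose 2 STAT-type sites are printed above, went from 56 and 39 in UT to 607 and 590 at 30 min of IL-4, whereas the LPS libraries had 25 and 7 at 30 min and 804 and 747 at 2 h.

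Socs1 encodes an inhibitor of JAK kinases. The element over its 3′ end (chromosome 16, 10779616 to 10784035) had values of 12 and 8 in UT. After LPS it had 36 and 28, 57 and 55, 221 and 195, and 373 and 288 at the 4 times, and after IL-4 it had 128 and 129, 315 and 350, 550 and 577, and 723 and 633. All stimulated libraries lay above UT, and the IL-4 libraries lay above the LPS libraries at every time.

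Cish encodes a SOCS family inhibitor of STAT5 signalling. The element 10297 bp from its start (chromosome 9, 107305487 to 107308932), which holds the STAT6-type site printed above, had 27 and 21 in UT. It had 46 and 73, 242 and 234, 394 and 405, and 121 and 112 at the 4 times of LPS, so the highest values were at 2 h. After IL-4 it had 159 and 193, 322 and 373, 499 and 439, and 622 and 577, with the highest values at 4 h. A nearby Cish element (107302443 to 107304135) showed the same order in time, with 227 and 186 at 2 h and 89 and 79 at 4 h of LPS, and 130 and 151 at 4 h of IL-4.

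Others of the 12 with the largest shared gain had less cytokine-specific neighbours. An element near Zfp459, a zinc finger gene, had 12 and 4 in UT, 230 and 231 at 2 h of LPS and 201 and 213 at 2 h of IL-4. An intronic element whose nearest start was Tax1bp1, 87336 bp away, had 46 and 45 in UT, 743 and 702 at 2 h of LPS and 630 and 620 at 2 h of IL-4. Elements near Adora2a, which encodes an adenosine receptor, and Batf, an AP-1 family factor, reached 119 and 95 and 282 and 247 at 4 h of LPS and 118 and 113 and 204 and 190 at 4 h of IL-4, from 4 and 4 and 16 and 8 in UT. An element near Pan3, a gene of mRNA deadenylation, had 4 and 1 in UT, 91 and 126 at 2 h of LPS and 74 and 80 at 2 h of IL-4, and one near Edn1 had 1 and 9, 97 and 75, and 99 and 153.

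**Figure D3:**
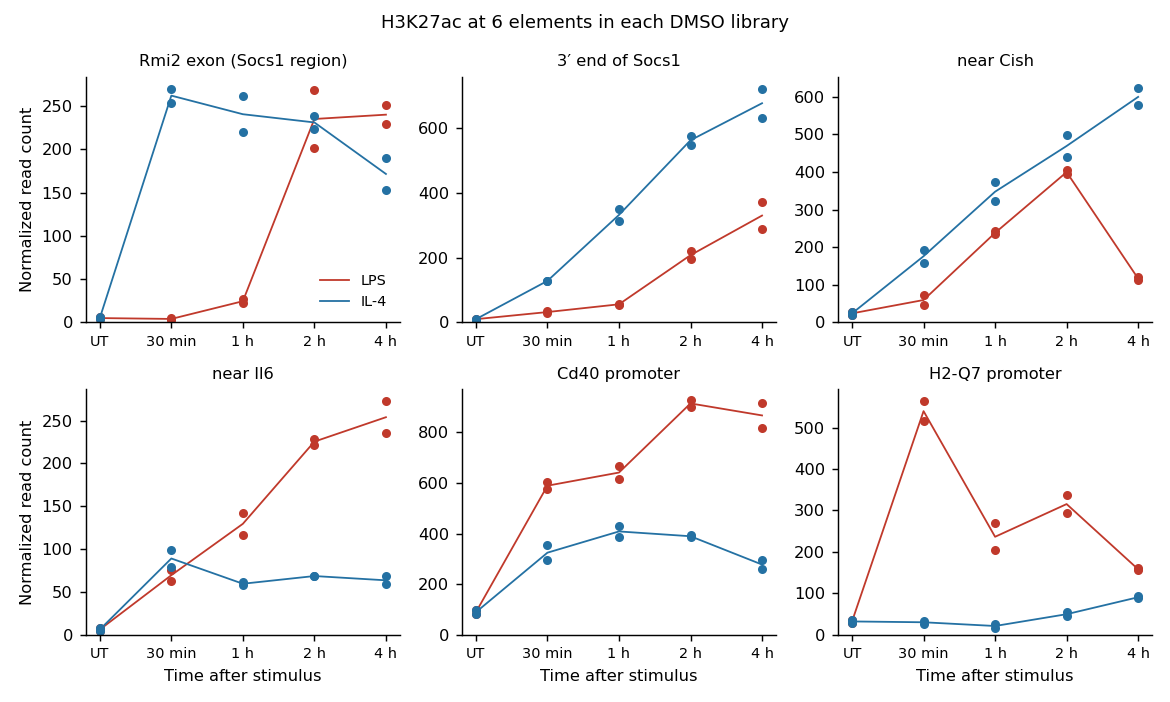
Normalized read count by time at 6 shared-gain elements in DMSO cells, with 1 point per library (2 per group) and lines through their mean; LPS in red and IL-4 in blue, and each panel has its own vertical scale starting at 0. The Rmi2, Socs1 and Cish elements were higher after IL-4 at 30 min, the H2-Q7 promoter was at 515 and 565 after LPS and 34 and 26 after IL-4 at 30 min, and the Il6 element had 63 and 76 after LPS and 79 and 99 after IL-4.

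Whether the gains recur in libraries that did not choose the elements was tested in the 546 CKI libraries, with limma over all CREs and compound as a factor. Called means higher than UT at a Benjamini-Hochberg adjusted p under 0.01 with a log2 difference over 1. Of the 1307 elements, 687 were called at 2 h of LPS, where 10.4% of the 59167 CREs tested were, and 682 at 4 h, against 10.2%. After IL-4, 628 were called at 2 h, against 3.8%, and 565 at 4 h, against 3.3%. By limma, 0 shared-gain elements were called lower in these 4 comparisons, where 10.6% and 8.37% of all CREs tested were called lower at 2 h and 4 h of LPS and 3.0% and 2.22% at 2 h and 4 h of IL-4. At an adjusted p under 0.01 with no limit on size, 6, 5, 1 and 2 of the elements were lower. The median log2 differences over the elements were 1.06 and 1.03 at 2 h and 4 h of LPS and 0.98 and 0.90 at 2 h and 4 h of IL-4, against 0.08, 0.04, 0.00 and 0.05 over all CREs tested.

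Both stimuli at the same time were called in 437 elements (33.4%), against 0.781% of all CREs tested. These 437 were 94.6% of the 462 CREs called in this way, and the other 25 were not among the shared-gain elements. Of 263 elements with a shared gain of at least 2 in DMSO cells, 228 (86.7%) were called after both, and of 714 with one under 1.5, 67 (9.38%). The smaller of the 2 differences was above 0 in 1299 of 1307, and its median was 0.81. The 2 contrasts share the UT libraries of the CKIs. In those the median over the elements ran from 29 to 90 with a median of 40. This was higher than the 20 and 23 of DMSO UT, and all CREs were higher too (a median of 52 against 36). At 4 h of LPS the CKI and DMSO library medians of the elements were 105 and 107, whereas those of all CREs were 56.0 and 40.5. The part of the UT level in the smaller gains of CKI cells was not tested.

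**Figure D4:**
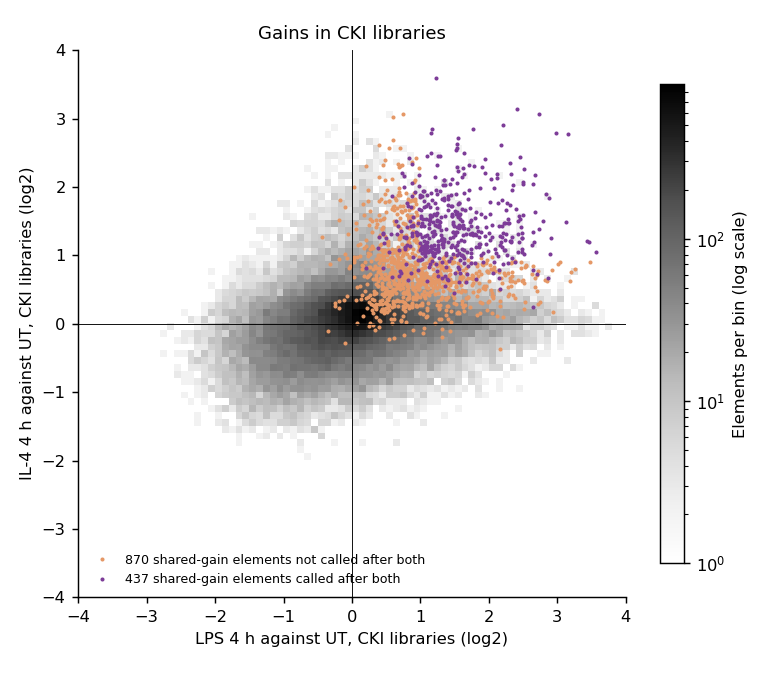
Log2 difference from UT at 4 h of IL-4 (vertical) against 4 h of LPS (horizontal) in the CKI libraries; grey shading counts CREs per bin on a log scale and points are the shared-gain elements, split into the 437 called after both stimuli at 2 h or at 4 h and the 870 that were not. The medians of the shared-gain elements were 1.03 (LPS) and 0.90 (IL-4), against 0.04 and 0.05 over all CREs tested.

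The 5 elements with the largest gain after both stimuli in CKI libraries were 3 at Rmi2, the Tax1bp1 element and one nearest Ptger4, which encodes a prostaglandin E2 receptor. The exonic Rmi2 element had a lowest, median and highest value of 3, 15 and 52 in 73 UT libraries, 37, 191 and 323 in 59 libraries at 2 h of LPS and 108, 198 and 315 in 58 libraries at 2 h of IL-4. The UT and IL-4 ranges did not overlap, and the LPS range overlapped UT at its lower end. The limma differences were 3.15 ± 0.10 (SE) at 2 h of LPS (adjusted p = 2.62e-119) and 3.35 ± 0.10 at 2 h of IL-4 (adjusted p = 7.07e-127). The Tax1bp1 element had differences of 2.62 ± 0.07 and 2.54 ± 0.07 at 2 h, and the Ptger4 element, whose STAT6-type site is printed above, 2.51 ± 0.11 and 2.44 ± 0.11. For all but 1 of the Rmi2, Tax1bp1 and Ptger4 elements the difference between the stimuli at 2 h was under 0.25 in size. The exception was an element nearest to Rmi2 (10845904 to 10847530), at which IL-4 exceeded LPS by 0.80 ± 0.11.

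The 5 with the smallest were near Mast2, Baiap2, Nek6 and Psmg1 and at the promoter of Gm13275. The Mast2 promoter rose by 1.31 ± 0.10 at 4 h of LPS and was at -0.19 ± 0.10 after IL-4, and the Baiap2 element was at 0.04 ± 0.08 and 0.24 ± 0.08 at 2 h. At the Nek6 element LPS gave a difference of 1.51 ± 0.09 at 2 h, and IL-4 gave -0.17 ± 0.09 (limma, adjusted p = 0.11). At the Psmg1 element the DMSO values were 148 and 188 at 30 min and 29 and 28 at 4 h of IL-4, and IL-4 gave -0.12 ± 0.09 at 2 h in CKI libraries. The Gm13275 promoter had values of 0 and 40 in UT and 120 and 0 at 2 h of LPS, so its replicates disagreed.

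LPS and IL-4 levels were also set against each other in the CKI libraries, without UT. At 2 h, LPS was higher at 186 elements (14.2%), where 11.0% of all CREs were called, and IL-4 at 115 (8.80%), against 9.99%. At 4 h LPS was higher at 207 (15.8%), against 11.0%, and IL-4 at 97 (7.42%), against 9.02%. The LPS shares lay somewhat above the background and the IL-4 shares somewhat below it, and these differences in share were not tested. The median difference over the elements was 0.08 at 2 h and 0.13 at 4 h in favour of LPS, against 0.08 and -0.02 over all CREs tested. The element at chromosome 16, 10701759 to 10705104, 82105 bp from the Socs1 start, lay at the IL-4 end with a difference of -3.15 ± 0.09 at 2 h, and the Il12a element (68636134 to 68638977 on chromosome 3), near the gene of an IL-12 subunit, towards the LPS end with 2.24 ± 0.10.

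The early times were compared directly between the stimuli in the 8 DMSO libraries of 30 min and 1 h, which took no part in choosing the elements. Of 1306 shared-gain elements tested by limma, 556 (42.6%) were higher after IL-4 than after LPS at 30 min, where 16.6% of the 50722 CREs tested were, and 113 (8.65%) were higher after LPS, against 12.1%. At 1 h, 352 were higher after IL-4, against 16.4%, and 213 (16.3%) after LPS, against 17.6%. The median difference of LPS minus IL-4 over the elements was -0.75 at 30 min and -0.26 at 1 h, against -0.11 and -0.03 over all CREs. The 2 and 4 h levels that chose the elements are not in this fit.

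At the IL-4 end at 30 min were the 2 Rmi2 elements described above, with differences of -4.99 ± 0.24 (adjusted p = 2.79e-16) and -4.90 ± 0.25, the distal Socs1 element and an intronic element near Gtpbp4, a nucleolar GTPase. The distal Socs1 element had 30 and 20 in UT, 20 and 24 at 30 min of LPS and 728 and 720 at 30 min of IL-4, and its LPS libraries reached 103 and 112 at 4 h. At 1 h the list again held this element (-4.74 ± 0.17), with elements nearest Ahi1, Pdcd1lg2 and Atg16l1, an autophagy gene. The Pdcd1lg2 promoter, of the gene for PD-L2, a ligand of the receptor PD-1, had 6 and 8 in UT, 12 and 10 at 1 h of LPS and 217 and 214 at 1 h of IL-4. It entered the set through 38 and 26 at 4 h of LPS, which was 300 and 267 after IL-4.

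At the LPS end at 30 min were the H2-Q7 promoter and an element near H2-Q4, both MHC class I genes, and 2 elements near Srrm1, a splicing factor gene. The H2-Q7 promoter (chromosome 17, 35438211 to 35439938) had 35 and 29 in UT, 515 and 565 at 30 min of LPS and 34 and 26 at 30 min of IL-4, a difference of 3.97 ± 0.22 (limma, adjusted p = 4.27e-15). At 4 h it had 156 and 160 after LPS and 88 and 93 after IL-4. H2-Q genes are near-identical copies, so reads there depend on how the authors placed multiple matches. The Srrm1 element at 135306288 to 135308634 on chromosome 4 had 16 and 20 in UT, 330 and 451 at 30 min of LPS and 39 and 45 at 4 h of IL-4. At 1 h elements near Pabpc1, Traf2, an adaptor of TNF receptors, and Ptprj, a receptor phosphatase, led with differences of 3.60 ± 0.31, 3.44 ± 0.22 and 3.38 ± 0.22.

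Motif matches were counted in the early groups. Of the 556 elements higher after IL-4 at 30 min, 199 (35.8%) held a STAT6-type site and 15 (2.70%) an NF-kB pattern, and of the 113 higher after LPS, 28 (24.8%) and 15 (13.3%) did. The interferon response pattern was present in 57 (10.2%) and 6 (5.31%), whereas AP-1 (19.2% and 19.5%), PU.1 (21.8% and 19.5%) and C/EBP (17.1% and 15.9%) patterns had closer shares. Among elements called after both stimuli in CKI libraries, 146 of 437 (33.4%) held a STAT6-type site, against 230 of 870 (26.4%) of the others, and the AP-1 shares were 18.5% and 23.6%. These shares were not tested.

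Genes of cytokine signalling feedback had 25 shared-gain elements among their 252 CREs (9.92%), nearest to 6 of 21 genes, and 10 of the 25 were called after both stimuli in CKI libraries. For this and the lists that follow, shared-gain elements were 2.21% of all CREs. The share called after both was 33.4% over all shared-gain elements and 0.781% over all CREs tested. The list shares were not tested against these. Beside Socs1 and Cish, the Pim1 element lay 46773 bp from the start of this STAT-induced kinase gene. The element had 18 and 16 in UT, 146 and 111 at 2 h of LPS and 90 and 138 at 2 h of IL-4. It rose by 1.55 ± 0.08 and 1.41 ± 0.08 in CKI libraries. Tnfaip3 encodes A20, an inhibitor of NF-kB signalling. The Tnfaip3 element, 83741 bp from the start, had 14 and 19 in UT, 463 and 387 at 4 h of LPS and 66 and 79 at 4 h of IL-4. Its differences in CKI libraries were 2.70 ± 0.07 and 0.71 ± 0.07, the second under the threshold of 1. The Rgs1 element, 46628 bp from the start of a regulator of G protein signalling, rose by 2.23 ± 0.10 at 2 h of LPS. It was at 0.79 ± 0.10 at 2 h of IL-4. The Dusp4 element, 164238 bp from the start, was under 1 after both, with 0.52 ± 0.10 and 0.85 ± 0.10 at 4 h.

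Transcription factor genes had 37 shared-gain elements among 706 CREs (5.24%), nearest to 18 of 50 genes, and 12 were called after both stimuli in CKI libraries. Beside Batf, the element near Nfil3, a bZIP repressor, had 32 and 32 in UT, 53 and 56 at 2 h and 156 and 147 at 4 h of LPS, and 297 and 299 by 30 min of IL-4. It rose by 1.45 ± 0.07 at 4 h of LPS and by 1.72 ± 0.07 at 4 h of IL-4. The element near Rel, which encodes the NF-kB subunit c-Rel, had 26 and 31 in UT, 189 and 221 at 4 h of LPS and 177 and 191 at 4 h of IL-4, and rose by 1.70 ± 0.11 and 1.38 ± 0.11. The Klf6 element, 266274 bp from the start, rose after both at 2 h, by 1.39 ± 0.09 and 1.14 ± 0.09. Elements nearest Myc and Tfec were called after 1 stimulus, Myc after LPS with 1.52 ± 0.13 at 4 h and Tfec after IL-4 with 1.37 ± 0.09 at 2 h, but the Myc element lay 739325 bp from the start.

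Cytokine and chemokine genes had 13 shared-gain elements among 188 CREs (6.91%), nearest to 8 of 36 genes, and 6 were called after both stimuli. An element 62270 bp from Il6, the gene of an inflammatory cytokine, had 4 and 8 in UT, 229 and 222 at 2 h of LPS and 68 and 69 at 2 h of IL-4. It rose by 2.24 ± 0.09 (limma, adjusted p = 1.09e-88) and by 1.26 ± 0.09 (adjusted p = 1.58e-36) at 2 h in CKI libraries. The Il1b element, near the gene of interleukin 1 beta, had 15 and 9 in UT, 106 and 109 at 4 h of LPS and 66 and 72 at 4 h of IL-4, and rose by 1.64 ± 0.08 and 1.39 ± 0.08. The Il12a element went from 13 and 11 in UT to 554 and 615 at 2 h of LPS and 85 and 99 at 2 h of IL-4, where the CKI difference was 0.93 ± 0.10. The Il1a element had 581 and 639 at 30 min of LPS and 173 and 181 at 30 min of IL-4, and its IL-4 values were 29 and 37 by 4 h, near the 15 and 31 of UT. The Ccl24 element, near an eosinophil chemokine gene, rose by 1.58 ± 0.10 at 2 h of IL-4 and was at 0.93 ± 0.10 after LPS. The Ccl12 element rose by 2.72 ± 0.08 and 1.03 ± 0.08 at 2 h.

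Receptor and costimulatory genes had 14 shared-gain elements among 289 CREs (4.84%), nearest to 8 of 38 genes, and 6 were called after both stimuli. The promoter of Cd40, a costimulatory receptor, had 98 and 80 in UT, 902 and 928 at 2 h of LPS and 393 and 386 at 2 h of IL-4. It rose by 2.19 ± 0.05 and 1.28 ± 0.05 in CKI libraries. Cd86 encodes a ligand of CD28 on T cells, and its element had 36 and 31, 408 and 393, and 100 and 110 in the same groups and rose by 2.47 ± 0.08 and 1.27 ± 0.08. An intronic Pdcd1lg2 element had 31 and 13 in UT, 170 and 165 at 4 h of LPS and 335 and 359 at 4 h of IL-4, the opposite order, and rose by 1.64 ± 0.09 and 2.49 ± 0.09. The promoter of Cd274, which encodes the other PD-1 ligand PD-L1, rose by 1.68 ± 0.05 at 2 h of LPS and was at 0.88 ± 0.05 after IL-4. The Cd83 element rose by 1.32 ± 0.05 and 1.03 ± 0.05 at 2 h, and the Il6ra element by 1.16 ± 0.07 and 1.01 ± 0.07 at 2 h and 4 h of IL-4, with 0.44 ± 0.07 and 0.74 ± 0.07 after LPS, under the size threshold.

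Genes of arginine, polyamine and central carbon metabolism had 13 shared-gain elements among 207 CREs (6.28%), nearest to 8 of 24 genes, and 4 were called after both stimuli. The promoter of Slc7a2, a transporter of arginine, had 14 and 14 in UT, 185 and 226 at 2 h of LPS and 181 and 187 at 2 h of IL-4. It rose by 1.41 ± 0.09 and 1.60 ± 0.09 in CKI libraries. The Acod1 element, near the gene of the enzyme that makes itaconate, had 15 and 7, 191 and 178, and 69 and 87 in these groups and rose by 2.15 ± 0.09 and 1.01 ± 0.09. Elements nearest Odc1, a polyamine synthesis enzyme, and Arg1, the arginase of alternatively activated macrophages, were called after IL-4 only, with 1.04 ± 0.11 and 1.20 ± 0.11 at 2 h against 0.49 ± 0.11 and 0.62 ± 0.11 after LPS. The Ch25h element rose by 1.26 ± 0.07 at 2 h of IL-4, and the Arg2 element did not pass 1 in any of the 4 contrasts.

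Alternative activation genes had 16 shared-gain elements among 150 CREs (10.7%), nearest to Arg1, Ccl24, Cish, Fn1, Myc and Pdcd1lg2, 6 of 20 genes, and 6 were called after both stimuli. The Fn1 promoter, of the fibronectin gene, had 12 and 19 in UT, 41 and 41 at 2 h of LPS and 35 and 44 at 2 h of IL-4, and CKI differences of 0.88 ± 0.09 and 0.86 ± 0.09. Interferon-stimulated antiviral genes had 3 among 73 CREs (4.11%), nearest to Irf7 and Usp18, and 1 was called after both. The Irf7 element, near the gene of an interferon regulatory factor, had 132 and 129 in UT, 63 and 64 at 30 min and 768 and 647 at 4 h of LPS, and 418 and 433 at 30 min of IL-4. It rose by 1.62 ± 0.07 and 1.30 ± 0.07 at 2 h. The Usp18 element, near the gene of an inhibitor of interferon signalling, was at 0.56 ± 0.10 at 2 h of LPS and rose by 1.19 ± 0.10 at 2 h of IL-4. In the 7 lists 0 shared-gain elements were called lower at 4 h by limma, as among all 1307, where 8.37% (LPS) and 2.22% (IL-4) of all CREs tested were. The lists overlap, and their median differences at 4 h ran from 0.63 to 1.80 for LPS and from 0.68 to 1.32 for IL-4, against 0.04 and 0.05 over all CREs tested.

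The median gain of the elements was positive under every CKI with complete data. For 53 CKIs per stimulus with UT, 2 h and 4 h libraries, the gain was the mean of 2 h and 4 h minus UT. Its median over the shared-gain elements ran from 0.10 to 1.63 after LPS and from 0.50 to 1.38 after IL-4, and it exceeded the median of all CREs under 53 of 53 CKIs for each stimulus. The lowest LPS value was under Talmapimod, a p38 inhibitor, where the median over all CREs was also low, at -0.78. The share of elements with a gain of at least 1 ran from 20.7% (Talmapimod) to 80.5% (Pacritinib) after LPS. After IL-4 it ran from 26.5% (Volasertib) to 68.5% (ONO4059analogue). Above the median of all CREs, the excess ran from 0.55 to 1.56 after LPS and from 0.54 to 1.33 after IL-4, with the lowest under the p38 inhibitor PH797804 and the JAK inhibitor Filgotinib. These are single series of libraries, so no CKI was tested alone. Within the 6 runs of compounds in the column order, a possible batch, the median over CKIs lay between 0.86 and 1.41 for LPS and between 0.94 and 1.21 for IL-4.

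**Figure D5:**
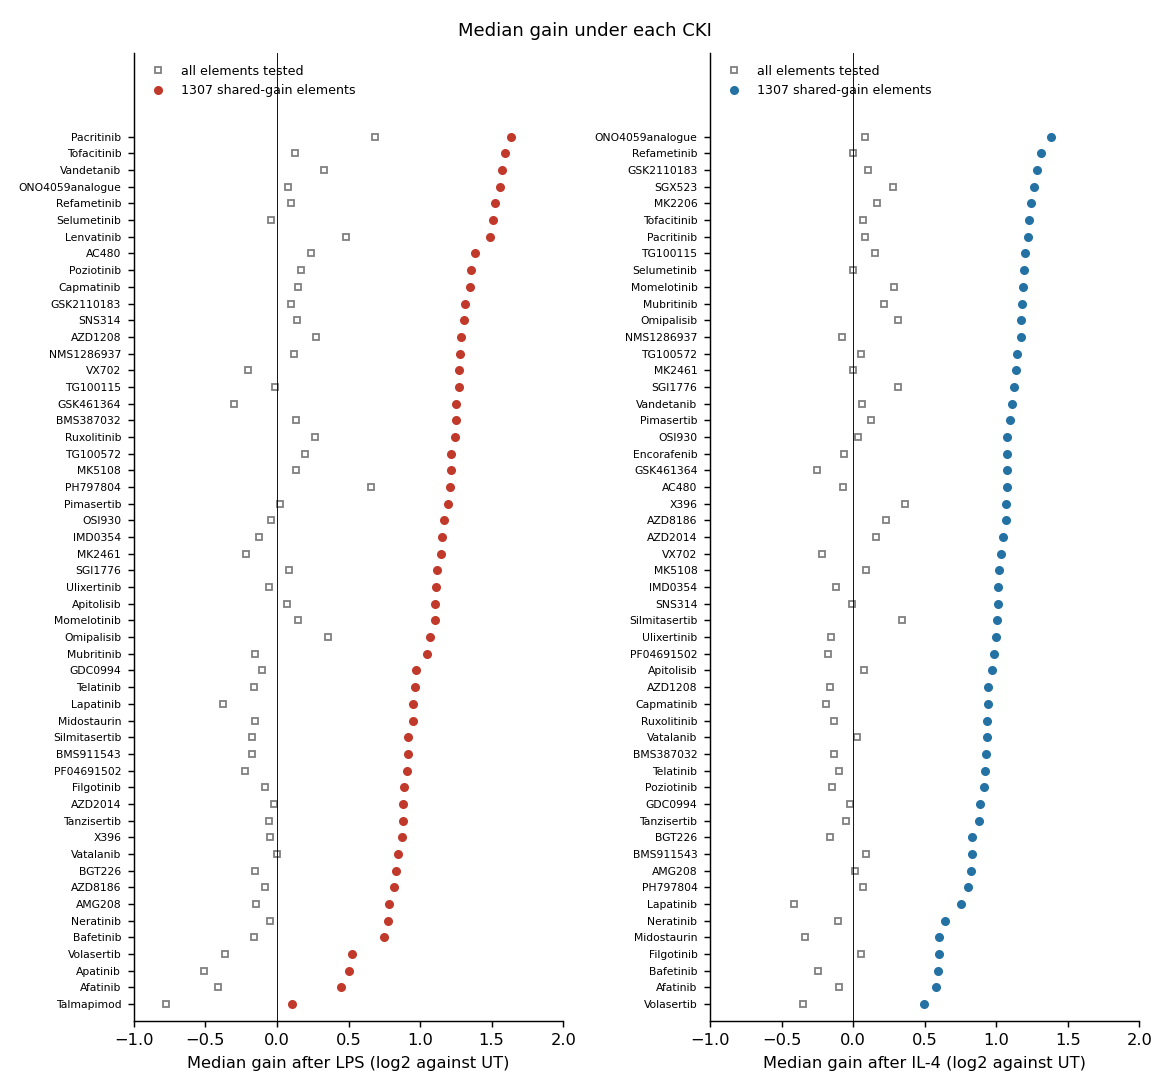
Median log2 gain (mean of 2 h and 4 h against UT of the same CKI) over the 1307 shared-gain elements (filled) and over all CREs tested (open squares) under each of 53 CKIs, after LPS (left) and IL-4 (right). The filled point lies to the right of the open square for every CKI, and the lowest filled points are 0.10 under Talmapimod for LPS and 0.50 under Volasertib for IL-4.

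Whether inhibitors of the kinases of either pathway changed the gains was tested with the CKI as the replicate, by limma with the run as a covariate, against all other CKIs. Compounds were assigned to classes by their designated target in the study. The authors set concentrations by an intended target, which for some CKIs was a different kinase. No shared-gain element was called at an adjusted p under 0.05 for 6 JAK inhibitors, 5 MEK or ERK inhibitors or 8 (LPS) and 9 (IL-4) PI3K, mTOR or AKT inhibitors, and 0.0% of the 59167 CREs were. At an unadjusted p under 0.05 there were 75 elements for JAK inhibitors and LPS and 32 for IL-4, 85 and 55 for MEK or ERK inhibitors and 110 and 156 for PI3K, mTOR or AKT inhibitors. Those for JAK inhibitors were higher in 64 of 75 for LPS and in 10 of 32 for IL-4. Those for MEK or ERK inhibitors were higher in 84 of 85 and 50 of 55, and those for PI3K, mTOR or AKT inhibitors in 81 of 110 and 138 of 156. How all CREs at that level split by direction was not computed, so these splits cannot be read as particular to the elements. The shares of all CREs at that level were 4.34%, 2.20%, 3.19%, 2.14%, 8.50% and 8.80% in the same order, and those of the shared-gain elements 5.74%, 2.45%, 6.50%, 4.21%, 8.42% and 11.9%.

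The median difference in gain over the elements was 0.11 for LPS and -0.02 for IL-4 under JAK inhibitors, against 0.13 and 0.06 over all CREs tested. The 95% interval of an element's difference extended by a median of 0.49 and 0.45 to each side, so differences of that size are not excluded for most elements. Among JAK inhibitors the median IL-4 gain of the elements was 0.60 under Filgotinib and 0.83 under BMS911543, and 1.18 under Momelotinib, 0.94 under Ruxolitinib, 1.22 under Pacritinib and 1.23 under Tofacitinib. The smallest p for JAK inhibitors and IL-4 was at the promoter of Ikzf2, a zinc finger factor gene, where the gain was 0.61 ± 0.71 (SD, 6 CKIs) against 1.09 ± 0.45 (SD, 47 CKIs), with a limma adjusted p of 1.00. For MEK or ERK inhibitors it was at the same Pde4b element (102606915 to 102610598 on chromosome 4) for both stimuli, with LPS gains of 2.29 ± 0.21 (SD, 5 CKIs) against 1.64 ± 0.42 and IL-4 gains of 2.59 ± 0.26 against 2.02 ± 0.40, and a limma adjusted p of 1.00 each. For PI3K, mTOR or AKT inhibitors the LPS gain of an element 6766 bp from Slc7a2 was 2.13 ± 0.56 (SD, 8 CKIs) against 1.08 ± 1.08 (limma adjusted p = 0.37), and the IL-4 gain of an element near Tab2, an adaptor of TAK1, was 1.73 ± 0.97 (SD, 9 CKIs) against 0.75 ± 0.58 (limma adjusted p = 0.199). Other elements with the smallest p lay near Crebbp and Myc for JAK inhibitors and LPS, Nrp2 and Usp32 for MEK or ERK inhibitors and Hs1bp3 and Zc3h12c for PI3K, mTOR or AKT inhibitors.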

How the data were processed

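H3K27ac ChIP-seq was carried out on BMDMs (antibody ab4729, single-end reads). As described in the methods, the authors trimmed the reads, mapped them to mm10 with ShortStack, which places multiply matching reads by the reads around them, and counted them at ATAC-seq peaks. The submitters' processing notes name Bowtie and SAMtools. The deposited values are read counts that the authors scaled by factors from invariant peaks and rounded to whole numbers, so they were treated as a score and count models were not applied. Libraries were grouped by the treatment labels. A title suffix b was taken as a further library of its group.

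Values were analysed as log2(value + 5), which understates the change of low elements. Tests used limma 3.58.1 (R 4.3.3) with a mean trend on elements whose mean in a fit reached 10, adjusted after Benjamini and Hochberg over all tested elements. The CKI model held condition and compound over 546 libraries, and the early model 8 DMSO libraries. Class models held the gain of each CKI, class and run. Runs are 6 consecutive sets of compounds in the column order. Most CKIs have 1 library per time, so their spread came from all compounds together, and libraries of 1 CKI were treated as independent given the compound term. On simulated data with 200 changed elements, the CKI model (IL-4 4 h, 59167 elements) recovered 200 at a log2 change of 1.5, the early model (1 h, 50722 elements) 110 at 2 with 1 false call, and the class model (JAK inhibitors, IL-4, 59167 elements) 101 at -1 with 5 false calls. The value of 1 read was estimated from the spacing of low values.

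Positions come from GENCODE M21 and bases from the RefSeq GRCm38 assembly, the same build as mm10. Named were the 12 elements with the largest smaller gain, the strongest per gene of each list (up to 6 per list), the 5 highest and 5 lowest in CKI libraries, the 4 called elements at either end at each early time, the 2 with the smallest p per class and stimulus (1 of them is not reported here), and 4 on either side of the threshold. Elements, lists, motifs and classes were chosen with earlier results of these data known. Alternatives were pseudocount 1, no filter, a log2 threshold of 0.5, quantile normalization, leaving out replicates, runs or compounds, complete CKIs only, all DMSO libraries, no run term and the replicate number as a block.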

Additional observations from a re-analysis of the deposited data

How the results depend on the processing

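Over 20 results and 212 alternatives, 203 values stayed within 1.5 times of those reported. The 9 that moved were those of the CKI libraries at a log2 difference over 0.5 in place of 1, which by construction admits smaller differences: 1141 and 1101 elements at 2 h and 4 h of LPS, 1087 and 1052 at 2 h and 4 h of IL-4, 1076 after both, 388 and 413 higher after LPS than IL-4 at 2 h and 4 h, and 296 and 268 higher after IL-4. The number of shared-gain elements was 1630 without replicate 1 and 1371 without replicate 2, of which 1165 and 1098 were among the 1307, 1164 (1133 among them) with quantile normalization and 1478 (all 1307 among them) with pseudocount 1. Elements called after both stimuli in CKI libraries were 334 with quantile normalization and 526 with pseudocount 1. The counts at 30 min ran from 499 to 575 for IL-4 over LPS and from 100 to 140 for LPS over IL-4 over all alternatives, and class counts were 0 in all. Same-numbered replicates did not deviate together (36 pairs of groups, correlations of -0.0873 to 0.0664). This cannot tell whether same-numbered libraries came from the same culture or animal. With the replicate block, the counts were 113 and 554 at 30 min and 213 and 354 at 1 h for LPS over IL-4 and IL-4 over LPS. Depth limits elements with few reads, since 1 read was worth up to 18.8 in a CKI library, and the counting error of DMSO UT was not estimated.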

Other observations

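Among the 25 CREs called after both stimuli in CKI libraries that were not shared-gain elements, the 3 with the largest smaller difference lay near Foxq1, Gm11172 and Uvrag, an autophagy gene; they were chosen after their values were seen. The Gm11172 element (chromosome 16, 10818164 to 10819783) lies between Socs1 and Rmi2. It had 7 and 3 in DMSO UT, 179 and 145 at 2 h of LPS and 28 and 31 at 2 h of IL-4, so its IL-4 mean stayed just under the minimum of 30. In CKI libraries it rose by 2.68 ± 0.12 at 2 h of LPS and 1.26 ± 0.12 at 2 h of IL-4 in the limma fit. The Foxq1 element was likewise under that minimum after IL-4, with 37 and 38 at 2 h of LPS and 18 and 22 at 2 h of IL-4, from 5 and 5 in UT.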
